A study of Mus musculus with 8 samples.

Results

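Daxx, its partner Atrx, the subunits of the HIRA complex (Hira, Ubn1, Ubn2 and Cabin1), the H3-H4 chaperones Asf1a and Asf1b, and the histone gene H3f3a were followed in cells that lack Daxx or have had it put back. These 9 genes were chosen by symbol as the machinery that handles the histone variant H3.3. Each was represented on the array by 1 probe set annotated to that gene alone, so all 9 of the 9 listed genes were found among 19938 measured genes. The samples were mouse embryonic fibroblasts of Daxx knockout genotype on an FVB/N background, profiled on 8 Affymetrix expression arrays. Daxx had been put back in the DaxxA samples (2 arrays) and the DaxxB samples (2 arrays), and the vector samples (4 arrays) had received a vector instead. The labels do not explain A and B, the vector or the Daxx sequence put back. They also do not say whether samples of a group were separate cultures, so the p-values rest on a spread between arrays that may be no more than technical. The arrays are named by their labels throughout, and values are log2 signals as deposited.

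H3.3 is the histone H3 variant that is laid into chromatin outside of DNA replication. Daxx holds an H3.3-H4 dimer and, with the ATP-dependent remodeller Atrx, places it at telomeres, pericentric repeats and silenced retroelements. The HIRA complex places H3.3 mainly at active genes and regulatory elements, while Asf1a and Asf1b pass newly made H3-H4 to HIRA or to the replication-coupled chaperone CAF-1.

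Vector replicate 2 stood apart from the other arrays. Its interquartile range was 2.79 over all probe sets, against 3.31 to 3.39 on the other 7 arrays, which correlated with each other at 0.991 to 0.998. Among the 4 vector arrays it was lowest for 7 of the 9 genes and for 39.2% of all genes, so values on 7 arrays, without it, are given beside the 8-array values for the 9 genes and wherever leaving it out changed a call or moved a value by much. All 10 fibroblast markers had means above the 95th percentile of 1027 olfactory receptor genes (6.07), which served as a level of background. Of all 19938 genes 12974 passed that level, so passing it does not by itself mark fibroblast identity. Of the markers of other cells, 0 of 5 endothelial, 2 of 6 epithelial, 2 of 5 blood, 3 of 4 skeletal muscle, 3 of 4 neural and 2 of 4 pluripotent markers passed it. The summed linear signal of the fibroblast markers was 24140 to 24800 on the Daxx arrays and 26150 to 26740 on the vector arrays. That gap in the sum, which the brightest markers dominate, lay in Prrx1. Without it, the other 9 markers summed to 22210 to 22640 on the Daxx arrays and 22050 to 22300 on the vector arrays. The median difference of the 10 markers was 0.03, but 3 were called lower and 1 higher, against 4.52% of all genes called. Prrx1, a mesenchymal transcription factor, differed by -1.07, Pdgfra by -0.82 and Pdgfrb by -0.70 (adjusted p = 3.14e-05, 0.0119 and 0.00202 in limma). Col1a2 differed by 0.31 (adjusted p = 0.0398 in limma). The part of these marker differences in the results below was not tested. In RNA of whole cultures, fewer cells of a type and less RNA per cell cannot be told apart.

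Daxx itself read 7.35 and 7.36 on the DaxxA arrays and 7.46 and 7.23 on the DaxxB arrays, against 7.34, 6.85, 7.27 and 7.16 on vector replicates 1 to 4. The Daxx and vector values overlapped, and only vector replicate 2 lay clearly below the rest. The Daxx arrays averaged 7.35 ± 0.0964 and the vector arrays 7.15 ± 0.216 (SD, n = 4 each). The mean difference was 0.20, with a 95% interval of -0.05 to 0.44. By exact permutation (two-sided) p was 0.143, and 4 against 4 arrays can give no less than 0.0286. The Daxx probe set thus did not separate the groups as labelled. Without vector replicate 2 the difference was 0.10 (interval -0.04 to 0.23). Whether the knockout or the Daxx that was put back includes the stretch these probes read is unknown from the sources used here, so the probe set is no check of the labels. DaxxA and DaxxB differed from each other by 0.01, with an interval from -0.37 to 0.39.

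**Figure D1:**
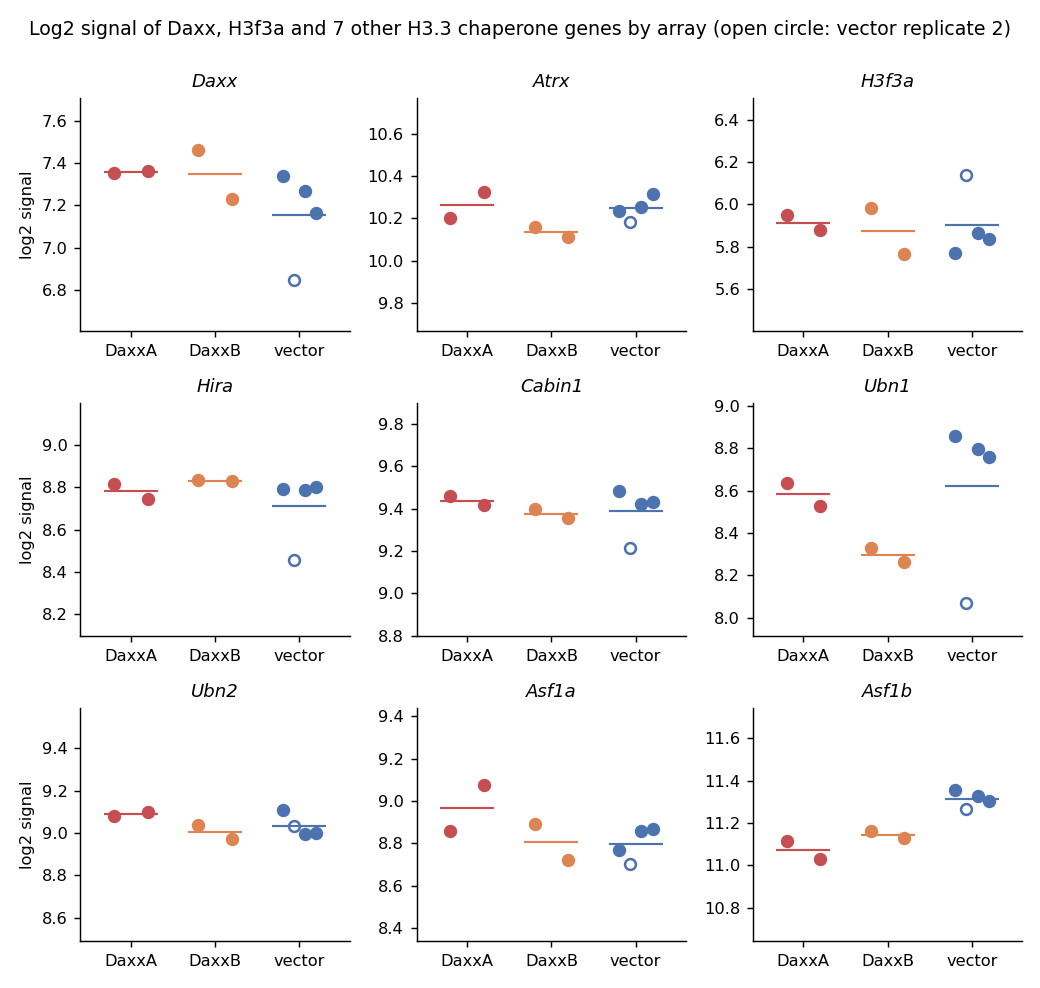
Log2 signal of each gene on each array, with 1 point per array, a bar at the group mean, and every panel spanning the same range of 1.1 log2 units. For Asf1b all 4 Daxx points lie below all 4 vector points. For Ubn1, Hira, Cabin1 and Daxx the open circle of vector replicate 2 lies below the other vector arrays.

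Across the array, limma called 4.52% of the 19938 genes at an adjusted p below 0.05 for Daxx against vector (902 genes). None of the 9 genes was among them, and 1 (Asf1b) had an unadjusted p below 0.05. Of the 9 differences 5 were above 0 and 4 below, with a median of 0.01 against a median of -0.03 for all genes. Without vector replicate 2, 12.8% of all genes were called, and 2 of the 9 genes, Asf1b and Ubn1, were among them, both lower in the Daxx arrays, as were 7.57% of all genes.

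**Figure D2:**
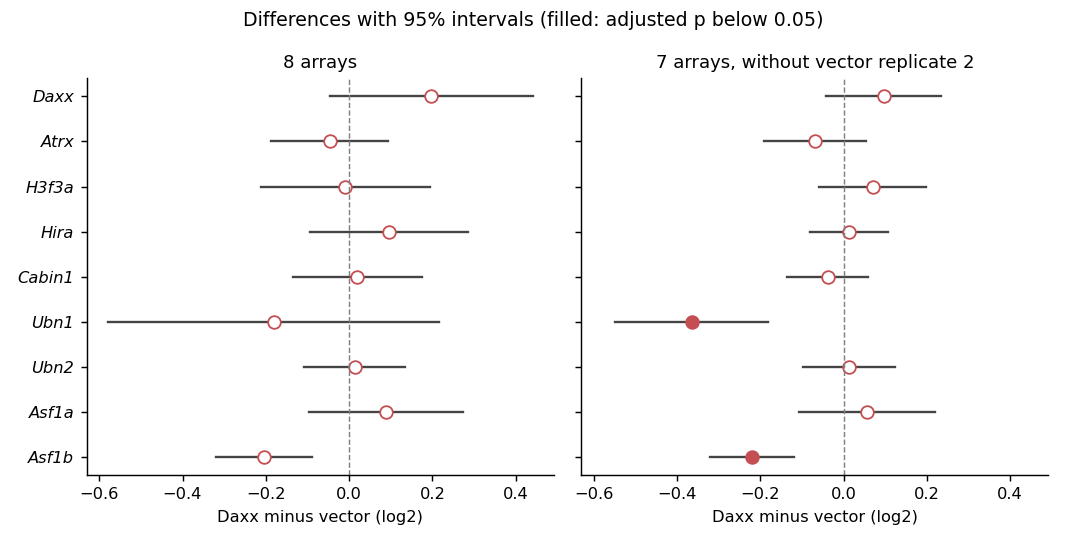
Difference between the Daxx and vector arrays for each gene on the log2 scale, with 95% intervals, over 8 arrays on the left and 7 arrays on the right. Open points did not pass an adjusted p of 0.05. On 8 arrays all 9 are open, and on 7 arrays Asf1b (-0.22) and Ubn1 (-0.37) are filled.

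Atrx, the remodeller that works with Daxx, was measured at 10.20 and 10.32 on the DaxxA arrays and 10.16 and 10.11 on the DaxxB arrays, against 10.23, 10.18, 10.25 and 10.32 on the vector arrays. Both DaxxB values were below all 4 vector values, and the share of all genes with that order was not counted. DaxxA replicate 1 lay among the vector values and DaxxA replicate 2 just above them. Daxx minus vector was -0.05 (SE 0.0614, adjusted p = 0.746 in limma), with an interval from -0.19 to 0.09, so the change in either direction was within 1.14-fold. On 7 arrays it was -0.07 (adjusted p = 0.513). DaxxB minus vector was -0.11 on 8 arrays (adjusted p = 0.571) and -0.13 on 7 arrays (adjusted p = 0.112), and neither passed.

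Hira, the scaffold that gives the HIRA complex its name, read 8.81 and 8.75 on the DaxxA arrays and 8.84 and 8.83 on the DaxxB arrays. The vector arrays read 8.79, 8.46, 8.79 and 8.80. Apart from vector replicate 2 all values lay between 8.75 and 8.84, and the groups overlapped. The difference of 0.10 on 8 arrays (SE 0.0835, adjusted p = 0.672) became 0.01 on 7 arrays (SE 0.0419, interval -0.08 to 0.11). Cabin1, the large subunit first described as an inhibitor of calcineurin, behaved alike: it averaged 9.41 ± 0.0431 on the Daxx arrays and 9.39 ± 0.119 on the vector arrays (SD, n = 4 each), and its difference was 0.02 on 8 arrays and -0.04 on 7 arrays (adjusted p = 0.902 and 0.662). Its direction therefore turned with vector replicate 2.

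The ubinuclein subunits, which bind H3.3 within the HIRA complex, differed from each other in pattern. Ubn1 read 8.64 and 8.53 on the DaxxA arrays and 8.33 and 8.26 on the DaxxB arrays, against 8.86, 8.07, 8.80 and 8.76 on the vector arrays. With vector replicate 2 set aside, the order was DaxxB, DaxxA, then vector, with no overlap between neighbours. The share of all genes with that full order was not counted. In 12.9% of all genes the Daxx values lay below those 3 vector values, whatever the order of DaxxA and DaxxB. Vector replicate 2 lay below every other array. On 8 arrays Daxx minus vector was -0.18 with a wide interval of -0.58 to 0.22 (SE 0.175, adjusted p = 0.692 in limma). On 7 arrays Ubn1 fell by 0.37 on the log2 scale, 1.29-fold lower (SE 0.0826, adjusted p = 0.0153). The array weights of limma, which give a deviating array less influence, also gave a call (adjusted p = 0.00625), while the other 12 alternatives did not, and its adjusted p ran from 0.00625 to 0.945 over 14 alternatives. The 0.945 came from the fit blocked on replicate number, in which vector replicates 1 and 2 alone stand for the vector arrays.

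Ubn2 averaged 9.05 ± 0.0566 on the Daxx arrays and 9.03 ± 0.0514 on the vector arrays (SD, n = 4 each), and its values overlapped. Its difference was 0.01 on both 8 and 7 arrays, with a 95% interval from -0.11 to 0.13 on 8, so a change of Ubn2 as large as that of Ubn1 on 7 arrays lies outside its interval.

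Asf1b was the member that separated the groups most cleanly. It read 11.12 and 11.03 on the DaxxA arrays and 11.16 and 11.13 on the DaxxB arrays, against 11.35, 11.27, 11.33 and 11.31 on the vector arrays. All 4 Daxx values were below all 4 vector values, a separation that 6.79% of all genes showed in that direction. The Daxx arrays averaged 11.11 ± 0.0547 and the vector arrays 11.31 ± 0.0369 (SD, n = 4 each). The difference of -0.20 corresponded to a 1.15-fold lower signal (SE 0.0512, interval -0.32 to -0.09) and just missed the threshold over all genes (adjusted p = 0.0635 in limma). On 7 arrays it was -0.22 and passed (SE 0.0451, adjusted p = 0.0093). Over 14 alternatives the difference stayed between -0.22 and -0.18, and adjusted p ran from 0.00221 to 0.277. The 0.277 came from the fit blocked on replicate number, in which vector replicates 1 and 2 alone stand for the vector arrays. The 5 alternatives that gave a call also called more genes in general: 12.8% without vector replicate 2, 16.2% with array weights, 10.3% with dim genes left out, 7.03% after quantile normalization and 6.46% with a trended robust fit.

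**Figure D3:**
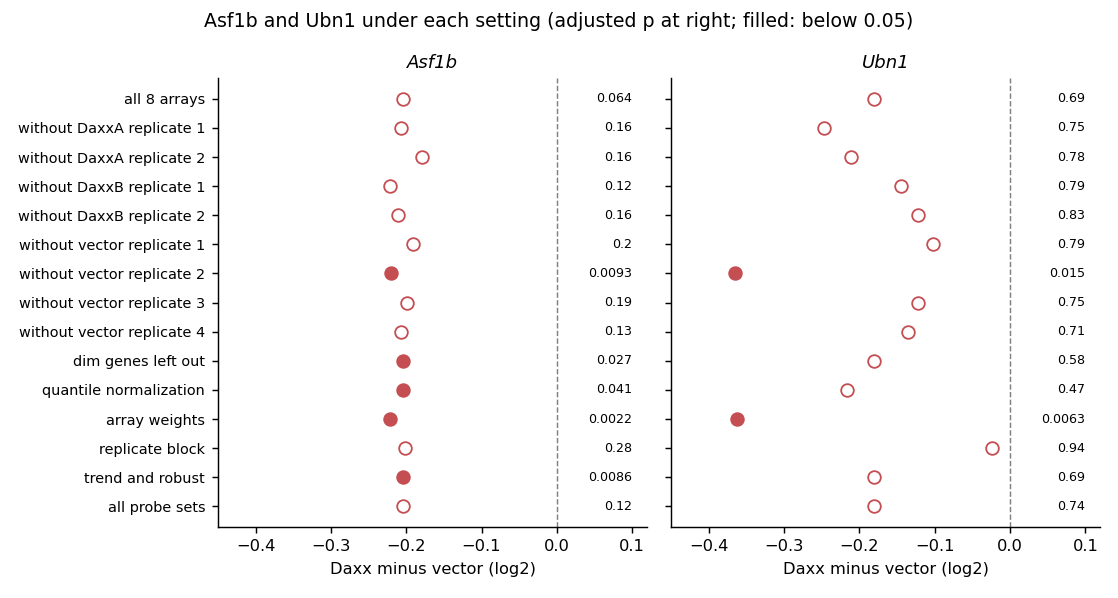
Daxx minus vector on the log2 scale for Asf1b and Ubn1 under each setting, with the adjusted p printed at the right and filled points below 0.05. Asf1b stays between -0.22 and -0.18 in every row, whereas Ubn1 moves between -0.37 and -0.02.

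Asf1a, the second mammalian copy of the same chaperone, is the one linked to the HIRA pathway, whereas Asf1b is known for its expression in dividing cells. Asf1a read 8.86 and 9.08 on the DaxxA arrays and 8.89 and 8.72 on the DaxxB arrays, against 8.77, 8.70, 8.86 and 8.87 on the vector arrays. DaxxA replicate 2 stood clearly above the rest, and the groups overlapped. The difference of 0.09 did not pass (SE 0.0811, interval -0.10 to 0.27, adjusted p = 0.685), nor did that of 0.06 on 7 arrays (adjusted p = 0.711). The promoter windows of the 2 Asf1 genes are shown because one gene separated the groups and the other did not. They cover 250 bases before to 50 after the start in RefSeq on GRCm38.p6, at chr8:83955444-83955743 (plus strand) for Asf1b and chr10:53596711-53597010 (plus strand) for Asf1a. Capitals mark 3 motifs searched on both strands: the cell cycle homology region TTTGAA, the CCAAT box, and the E2F site TTTCCCGC.
Asf1b: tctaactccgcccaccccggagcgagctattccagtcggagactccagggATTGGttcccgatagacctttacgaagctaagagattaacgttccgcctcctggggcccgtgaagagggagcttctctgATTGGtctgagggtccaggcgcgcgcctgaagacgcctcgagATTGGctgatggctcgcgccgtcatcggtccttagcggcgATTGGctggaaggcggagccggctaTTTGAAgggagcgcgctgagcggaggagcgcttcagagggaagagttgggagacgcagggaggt
Asf1a: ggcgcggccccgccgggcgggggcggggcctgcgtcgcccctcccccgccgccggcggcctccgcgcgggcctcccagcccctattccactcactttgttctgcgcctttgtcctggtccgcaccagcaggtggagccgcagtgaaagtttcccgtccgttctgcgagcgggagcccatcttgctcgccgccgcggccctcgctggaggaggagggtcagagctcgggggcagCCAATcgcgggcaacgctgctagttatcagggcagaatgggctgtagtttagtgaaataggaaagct
The Asf1b window held TTTGAA 1 time and CCAAT 4 times on either strand, and the Asf1a window held TTTGAA 0 times and CCAAT 1 time. Neither held the E2F letters. Among 32851 windows of the same length TTTGAA was present at least 1 time in 17.9%, CCAAT in 37.4% and the E2F letters in 1.07%. The share of windows with 4 or more CCAAT matches was not counted. These are matches of letters, not sites shown to be bound.

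Because Asf1b follows the cell cycle, 13 proliferation markers were set beside it. None was called on 8 arrays, against 4.52% of all genes, and their median difference was below 0.01. Mki67, a nuclear antigen of cycling cells, averaged 11.91 ± 0.0895 on the Daxx arrays and 12.08 ± 0.0314 on the vector arrays (SD, n = 4 each), a difference of -0.17 (SE 0.0585, adjusted p = 0.187). Top2a, the topoisomerase of dividing cells, differed by -0.19 on 8 arrays (adjusted p = 0.225) and fell by 0.25 on 7 arrays (adjusted p = 0.0136). Mcm3, a subunit of the replicative helicase, and Rrm2, a ribonucleotide reductase subunit, had values above 0 (0.25 and 0.11, adjusted p = 0.3 and 0.343). On 7 arrays these were 0.14 and 0.09 and Mki67 was -0.18 (adjusted p = 0.096, 0.233 and 0.058). The markers thus lay on both sides of 0, and the median of all 13 was -0.02 on 7 arrays. The part of growth rate in the Asf1b difference was not tested.

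H3f3a, which encodes H3.3, read 5.95 and 5.88 on the DaxxA arrays and 5.99 and 5.77 on the DaxxB arrays, against 5.77, 6.14, 5.87 and 5.84 on the vector arrays. Its mean lay below the background level of 6.07, unlike the other 8 genes, so this probe set says little about the gene. Daxx minus vector was -0.01 on 8 arrays and 0.07 on 7 arrays (adjusted p = 0.969 and 0.524). Another 4 probe sets listed H3f3a together with a predicted gene, and 2 listed H3f3b, the second gene for the same H3.3 protein, together with another predicted gene. Their signal cannot be assigned to 1 gene. The 4 sets with H3f3a read 9.84 to 10.74 on the Daxx arrays and 9.73 to 10.64 on the vector arrays, and all 4 overlapped between the groups. The 2 sets with H3f3b read 11.88 to 12.10 on the Daxx arrays and 11.70 to 11.96 on the vector arrays, and within each set the Daxx values were all above the vector values, as they were in 6.25% of all probe sets on the array. All 6 differences were above 0, from 0.11 to 0.17, and none passed when all probe sets were adjusted together (adjusted p from 0.443 to 0.713). The 0.17 rested on vector replicate 2, which read 9.95 in that set, and the difference of the means without that array was 0.04. In the other 5 sets it was 0.09 to 0.10 without that array, with no test.

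The Daxx samples bore the names DaxxA and DaxxB, and each was also set against the same 4 vector arrays. On 8 arrays 1.97% of all genes were called for DaxxA and 2.69% for DaxxB, and 0 of the 9 genes in either. Asf1b was -0.24 in DaxxA (SE 0.0596, adjusted p = 0.131) and -0.17 in DaxxB (SE 0.0596, adjusted p = 0.239). Ubn1 was -0.04 in DaxxA and -0.32 in DaxxB (SE 0.213 each). On 7 arrays 11.3% of genes were called for DaxxA (6.8% lower) and 20.5% for DaxxB (9.53% lower), and Asf1b and Ubn1 were called in both. There Asf1b fell by 0.25 in DaxxA and by 0.19 in DaxxB, and Ubn1 fell by 0.22 in DaxxA (adjusted p = 0.0252) and by 0.51 in DaxxB (adjusted p = 0.000135).

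**Figure D4:**
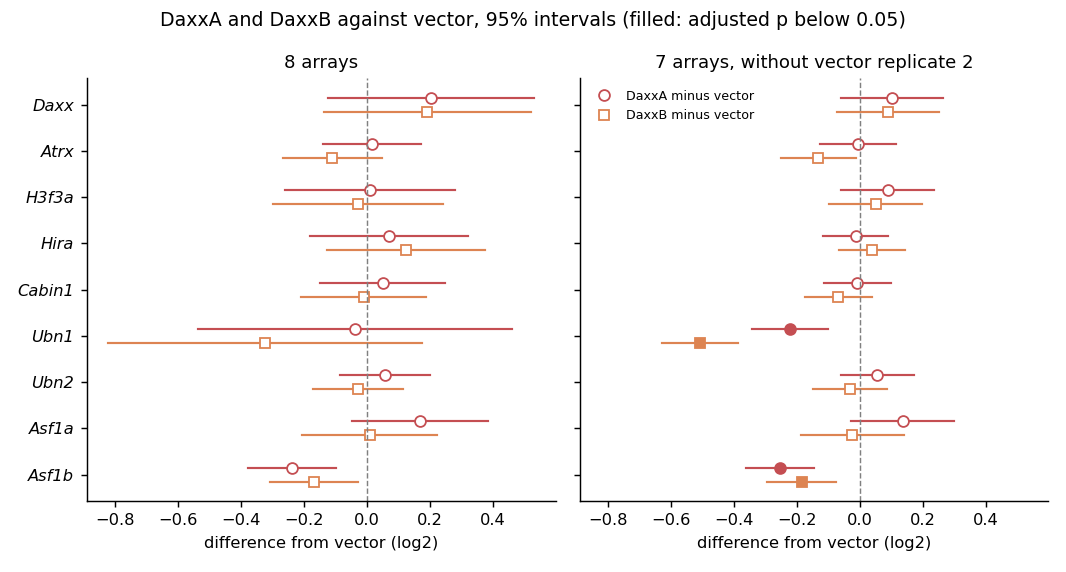
DaxxA minus vector (circles) and DaxxB minus vector (squares) for each gene on the log2 scale, with 95% intervals, over 8 arrays on the left and 7 on the right. The 4 filled points on the right belong to Ubn1 and Asf1b, and Ubn1 shows the widest gap between circle and square.

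The difference between DaxxA and DaxxB was tested directly. With 8 arrays limma called 0.0% of all genes (0 of 19938) and none of the 9, and none of the 9 had an unadjusted p below 0.05. The values ran from -0.07 for Asf1b to 0.29 for Ubn1, with 7 above 0 and 2 below. On 7 arrays the spread was smaller and 2.15% of genes were called, of which Ubn1 was 1. Its DaxxA minus DaxxB was 0.29, or 1.22-fold (SE 0.0604, interval 0.15 to 0.42, adjusted p = 0.0419 in limma). The value was the same on 8 arrays (SE 0.246), and only the spread changed. Of 14 alternatives 1 gave this call, and array weights did not (adjusted p = 0.0542 in limma). For Asf1a the difference was 0.16 (interval -0.09 to 0.41 on 8 arrays), for Atrx 0.13 (interval -0.05 to 0.31) and for Ubn2 0.09 (interval -0.08 to 0.25), and none of these was called on 8 or 7 arrays.

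No gene of a wider set of histone chaperones was called, against 4.52% of all genes on 8 arrays and 12.8% on 7 arrays. In a list of this size a count of 0 on 8 arrays is near that share. Of 23 other measured histone chaperones and their partners, among them the CAF-1 subunits Chaf1a and Chaf1b, the FACT subunit Supt16 and nucleophosmin (Npm1), 0 passed in either direction on 8 or 7 arrays, with a median of 0.05. Nasp, which holds free H3-H4, had the lowest adjusted p of this list. It read 9.38 to 9.58 on the Daxx arrays and 9.25 to 9.37 on the vector arrays, a difference of 0.20 (SE 0.0605, adjusted p = 0.124). Anp32e, a chaperone that removes H2A.Z, differed by 0.20 (adjusted p = 0.215). Hirip3, named for binding Hira, differed by -0.14 (adjusted p = 0.279), and Dek, a chromatin protein, by -0.16 (adjusted p = 0.315).

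Among 8 measured histone variants 0 passed on 8 arrays and 1 fell on 7 arrays. Of all genes 4.52% were called on 8 arrays, and 7.57% were called lower on 7 arrays. The variant that fell, Macroh2a2 (also known as H2afy2), encodes a macroH2A found in silent chromatin. It read 9.30 to 9.58 on the Daxx arrays and 9.64 to 10.00 on the vector arrays. The groups did not overlap, a separation that 6.79% of all genes showed in that direction. The difference was -0.32 (SE 0.0914, adjusted p = 0.0985) on 8 arrays and -0.26 on 7 arrays (adjusted p = 0.0413). The other macroH2A gene, Macroh2a1, differed by 0.06 (interval -0.06 to 0.18). H2az1 differed by 0.08 and H2ax by 0.04, with adjusted p of 0.598 and 0.79, and on 7 arrays by 0.04 and 0.0021.

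Of 9 remodellers, modifiers and readers linked to H3.3, 0 passed on 8 arrays, against 4.52% of all genes called. Chd1, a remodeller with a part in H3.3 deposition, read 9.71 to 9.83 on the Daxx arrays and 9.18 to 9.62 on the vector arrays, where 9.18 belonged to vector replicate 2. Its difference was 0.27 (adjusted p = 0.235), and on 7 arrays it rose by 0.16 (adjusted p = 0.0444). Setd2, a histone H3 lysine methyltransferase, differed by -0.16 on 8 arrays (adjusted p = 0.432) and fell by 0.22 on 7 arrays (adjusted p = 0.0341). Srcap, a remodeller that inserts H2A.Z, differed by -0.15 (adjusted p = 0.183), and Morc3, an ATPase of PML bodies, by 0.15 (adjusted p = 0.227). In total 1 gene of this list rose (Chd1) and 3 fell (Setd2, Ep400 and Nsd1) on 7 arrays, against 12.8% of all genes called there. Ep400 and Nsd1 were chosen for mention after their values were seen. They differed by -0.11 and -0.04 on 8 arrays (adjusted p = 0.477 and 0.872 in limma). On 7 arrays they differed by -0.16 and -0.15 (adjusted p = 0.0248 and 0.0338 in limma).

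**Figure D5:**
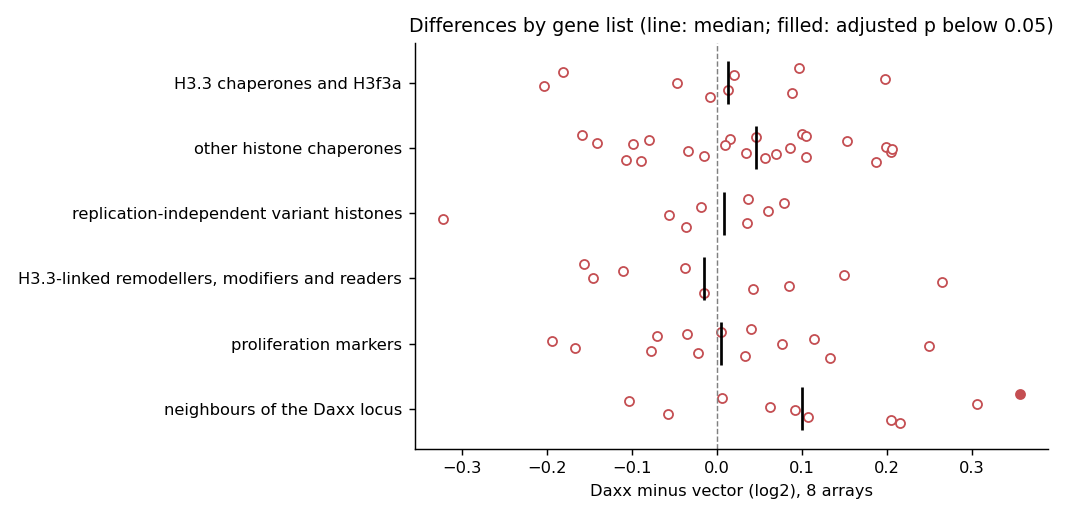
Daxx minus vector on the log2 scale over 8 arrays for each gene of 6 lists, with 1 point per gene, a bar at each median and filled points at an adjusted p below 0.05. Only Rps28, among the neighbours of the Daxx locus, is filled.

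The genes with array profiles most like those of Daxx and Atrx were ranked by the mean absolute difference, over the 8 arrays, between deviations from each gene's own mean. For Daxx these were Yod1 (0.0289), Tnfrsf18 (0.0362), Fam161b (0.0405), Tigar (0.0443) and Igbp1 (0.0449), against a median of 0.159 over 17328 genes. For Atrx they were Epc2 (0.0181), Zfp62, Arih1, Atad2 and Itch (0.0227), against a median of 0.121. The Daxx ranking depends much on vector replicate 2, where Daxx read 6.85, and no ranking without that array was made. A small difference can also come from 2 genes that both vary little, so these lists do not show shared regulation.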

How the data were processed

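Total RNA was amplified and end-labelled with biotin for the arrays, per the labels' protocols. The table deposited by the authors holds log2 signals, and the submitters' processing notes name RMA and Affymetrix Expression Console. RMA subtracts background, sets arrays to a common distribution and summarises probes, so it compresses weak signals and hides a shift shared by most genes. The sources used here give no version, detection call or build. Among all probe sets, 21789 had 1 gene symbol, 1621 several and 12146 none listed. The set with the highest mean was kept per gene, leaving 19938 genes. Of these 19856 matched the GRCm38.p6 gene table by gene number.

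Differences were fitted with limma 3.58.1 in R 4.3.3 (lmFit, eBayes) over all genes, with Benjamini-Hochberg adjustment and a threshold of 0.05. Daxx against vector used 2 conditions, while DaxxA, DaxxB and their difference used 3 groups with 1 shared spread. Daxx was also tested by an exact permutation test (SciPy 1.17.1). The number of arrays limits the precision. In simulated data of 19938 genes with 200 changed, this comparison called 60% of genes given a log2 change of 0.5. It called 91% of genes given a change of 1, and 2.58% of its calls were false. The simulated noise was independent between arrays, with 1 spread per gene, so no array deviated as vector replicate 2 did. The 9 genes differed by -0.20 to 0.20 on 8 arrays, changes smaller than those simulated.

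The members and lists were chosen with earlier results of these data known. Named genes were the 9 members, up to 4 per list by adjusted p, and the 5 profiles most like Daxx and Atrx, leaving out predicted, olfactory receptor and small RNA genes. The lists were other chaperones (23 of 26 entries measured), variant histones (8 of 10), linked remodellers (9 of 10), proliferation (13 of 14), the 5 measured genes on either side of Daxx, and markers of fibroblasts, epithelium, endothelium, blood, muscle, neural and pluripotent cells. Alternatives left out each array, left out dim genes, quantile-normalised the values, weighted arrays, blocked on replicate number, used a trended robust fit, or adjusted over all probe sets.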

Additional observations from a re-analysis of the deposited data

Results flagged for a closer look

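In the vector group of 4 arrays, the value of replicate 2 for Hira (8.46) was separated from the next lowest by 0.955 of the range of the group, above the critical value of Dixon's test for 4 values. The same array gave 8.07 for Ubn1, with a gap of 0.873 of the range. These were 2 of 18 groups checked (9 genes in the Daxx and vector arrays), where chance flags about 1 in 20. Without that array Hira differed by 0.01 between Daxx and vector (0.10 with it), and Ubn1 by -0.37 (-0.18 with it).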

How the results depend on the processing

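For Daxx against vector the 902 called genes became 1402 after quantile normalization, 3231 with array weights and 545 when all probe sets were adjusted together, and 446 to 2558 when 1 array was left out (without DaxxB replicate 2 and without vector replicate 2). For DaxxA the 393 became 659, 2718 and 225 under the same 3 settings, 600 with dim genes left out, and 71 to 2246 with 1 array left out. For DaxxB the 536 became 1037, 4252 and 326, 931 with dim genes left out, 901 with a trended robust fit, and 82 to 4083 with 1 array left out. For DaxxA against DaxxB the 0 became 485 with array weights and 0 to 428 with 1 array left out. In each comparison the highest count with 1 array left out was the one without vector replicate 2. Of the 9 genes, Daxx against vector called 1 with dim genes left out, 1 after quantile normalization, 1 with the trended robust fit, 2 with array weights and 0 to 2 with 1 array left out. DaxxA against vector called 1, 1 and 2 after quantile normalization, with the trended robust fit and with array weights, DaxxB called 2 with array weights, each called 0 to 2 with 1 array left out, and DaxxA against DaxxB called 0 to 1.

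Among values of single genes that were not called, some changed sign. In Daxx minus vector these were H3f3a (0.0522 after quantile normalization, 0.0584 with array weights, -0.0527 to 0.0694 with 1 array left out), Cabin1 (-0.0368 with array weights, -0.0382 to 0.0515) and Ubn2 (-0.0149 after quantile normalization, -0.0045 to 0.038). In DaxxA minus vector they were Atrx (-0.0087 after quantile normalization, -0.0438 to 0.0758), H3f3a (-0.0334 to 0.0887), Hira (-0.008 with array weights, -0.0128 to 0.1055), Cabin1 (-0.0065 with array weights, -0.0077 to 0.0819) and Ubn1 (-0.2219 to 0.0414). In DaxxB minus vector they were H3f3a (0.016 after quantile normalization, 0.0453 with array weights, -0.1383 to 0.0815), Cabin1 (-0.0686 to 0.021), Ubn2 (-0.0621 to 0.0021) and Asf1a (-0.0239 after quantile normalization, -0.0187 with array weights, -0.0757 to 0.0928). In DaxxA minus DaxxB they were Daxx (-0.1062 to 0.1293) and H3f3a (-0.0712 to 0.1485). Of these, only Ubn1 in DaxxA minus vector was called under any alternative, as without vector replicate 2 (-0.2219, adjusted p = 0.0252 in limma). The cause of the sign changes was not tested.

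With the replicate number as a block (replicate block), 162 genes were called for Daxx against vector, 0 for DaxxA and 0 for DaxxB, and none of the 9. It turned Ubn2 to -0.023 in Daxx minus vector, H3f3a to -0.042 and Ubn1 to 0.1196 in DaxxA minus vector, and Cabin1 to 0.028 in DaxxB minus vector. What the replicate numbers stand for is unknown. Deviations of same-numbered arrays from their group means correlated at 0.0238 to 0.1619 over genes. This cannot show whether the numbers mark a shared batch. With 2 arrays per Daxx group the deviations mirror each other, and vector replicates 1 and 2 correlated at -0.8531. Signal over background limits H3f3a, whose own probe set is dim.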

Other observations

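The neighbours of Daxx were taken as the 5 measured genes listed before it and the 5 after it in the GRCm38.p6 gene table. Of these 10, 1 rose on 8 arrays, 0 fell and 9 did not pass, against 4.52% of all genes called. Their median was 0.10, against -0.03 for all genes. Rps28, a ribosomal protein gene, read 11.04 to 11.18 on the Daxx arrays and 10.63 to 10.82 on the vector arrays and rose 1.28-fold (SE 0.063, adjusted p = 0.0152). Ndufa7, a subunit of respiratory complex I, differed by 0.31 (adjusted p = 0.0559 in limma). Its Daxx values were all above its vector values, as they were in 6.25% of all probe sets. On 7 arrays Ndufa7 rose by 0.26 (adjusted p = 0.0169 in limma). Pfdn6, a prefoldin subunit, differed by 0.22 and Kank3 by 0.11 (adjusted p = 0.201 and 0.553). On 7 arrays 2 of the 10 rose and 1 fell, against 12.8% of all genes called. The one that fell was Tapbp, which helps to load MHC class I and was chosen for mention after its values were seen (-0.23, adjusted p = 0.0111).

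Among markers of other cell types, Map2, a microtubule protein of neurons, rose 1.51-fold (8.88 to 8.99 on the Daxx arrays and 8.03 to 8.48 on the vector arrays, adjusted p = 0.0104). It was 1 of 4 neural markers, and 4.52% of all genes were called. The other 3 neural markers and all measured markers of epithelium, endothelium, blood, muscle and pluripotent cells did not pass on 8 or 7 arrays.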
